A study of Mus musculus with 11 samples.

Results

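The cluster of miR-17 to miR-92a was followed here in mouse embryonic stem (mES) cells with and without Trim71, an RNA-binding protein of stem cells and early embryos. Its members were the rows of the deposited miRNA table that belong to the hairpins miR-17, miR-18a, miR-19a, miR-19b copy 1, miR-20a and miR-92a copy 1, with each arm that the table lists. This gave 12 of the 592 rows, 2 mature arms for each of 6 hairpins, and rows of a second gene copy alone were left out. The members were chosen by name, though with earlier results of these data known. Small RNAs of 11 libraries were sequenced, 5 of genotype Trim-/- and 6 of genotype Trimfl/fl, all of male C57BL/6 mES cells. According to the methods of the study, the cells carried 2 floxed Trim71 alleles together with the Rosa26-CreERT2 allele, a tamoxifen-activated Cre made in all cells, so that the Trimfl/fl controls carried the same alleles before recombination. Per the labels, Trim-/- cells had received 500 nM 4-hydroxytamoxifen (4-OHT) for 2 days and were then grown for at least 7 days. The methods give a lower dose and a shorter culture, with a DMSO control. Both genotypes were kept with serum and LIF, and cells bearing the surface antigen SSEA-1 were collected on magnetic columns before lysis, to remove differentiated cells.

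Days 1, 5 and 6 each had 1 library of either genotype from clone 1, and days 3 and 4 each had 1 of either genotype from clone E3, so that 5 same-day pairs could be compared. The Trimfl/fl library of day 2, from clone E3, had no partner. The values are normalised read counts after a batch correction, and the correction left a strong mark on them. In every member the sum of both libraries of a pair was equal on all days, to within 0.000421%, and in 591 of 592 rows it was equal to within 0.1%. A high Trim-/- value therefore always stood beside an equally low Trimfl/fl value, the SD of both groups was the same, and which library of a pair stood apart cannot be told apart. The level of each row on each day was thus reset by addition, so that folds and ratios between single libraries depend on the offset that the correction set, most of all at low values. The day 2 library was the mean of the other Trimfl/fl libraries to within 0.000257% and was left out. No member had a value at the floor of 1, which many other rows reached. The floor was not negligible in every library. In the Trimfl/fl library of day 5 the members held 5.40% of the summed values before the floor and 4.99% after it. In that of day 6 they held 3.78% and 3.75%, and in the other libraries the share hardly changed. Which rows the floor altered most was not examined, so it cannot be taken as a matter of rare miRNAs alone. The values of 1 library summed to between 2742673 and 5551715, which is not a sequencing depth, and the number of reads is unknown. Markers of mES cells, the miR-290 to miR-295 and miR-302 to miR-367 rows, held 55.5 to 59.7% of the Trim-/- libraries and 56.8 to 59.8% of the Trimfl/fl libraries. The 8 rows of neural miRNAs held 0.158 to 0.182% and 0.124 to 0.155%. These ranges did not overlap, while 5.24% of all single rows were higher in Trim-/- cells on all 5 days. Log2 differences within this list, fitted as described below, ran from -0.20 (miR-219a-2-3p) to 0.76 (miR-9-5p). The 8 rows of fibroblast or feeder miRNAs held 0.364 to 0.713% and 0.476 to 0.815%, and the 10 let-7 rows of the 5p arm 0.718 to 2.21% and 0.0186 to 0.998%. The outer let-7 values, 2.21% and 0.0186%, both came from day 6, and without it the ranges were 0.718 to 0.917% and 0.739 to 0.998%. In none of these lists was a row at the floor in every library, but rows at the floor in single libraries were not counted. Such shares also depend on the offset that the correction set, and the part of these lists in the results was not tested. In such bulk samples fewer cells of a type and less RNA per cell cannot be told apart.

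This cluster is a polycistron, in which a single long transcript, driven by Myc and other growth-related factors, is cut by Drosha and Dicer into several miRNAs. It is abundant in embryonic stem cells and in proliferating progenitors and is known as an oncogenic miRNA cluster. A miRNA finds its targets mainly through its seed, bases 2 to 8. The miR-17 seed is known to repress cell cycle inhibitors such as Cdkn1a, and several members of the cluster the pro-apoptotic Bcl2l11. In GRCm38 the 6 hairpins lie on the plus strand within 836 bases, at chr14:115043671-115044506, in the order Mir17, Mir18, Mir19a, Mir20a, Mir19b-1 and Mir92-1. All 6 are in an exon, chr14:115043271-115046727, of the non-coding host gene Mir17hg (chr14:115042879-115046727, GENCODE M21). The mature miR-19b-3p and miR-92a-3p are also made from second copies on the X chromosome with the same sequence, and reads of the copies cannot be separated.

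The arm that accumulates from each hairpin is shown first, since the results are ordered by its seed. Sequences are from RefSeq (GRCm38.p6), which held 11 of the 12 members, and capitals mark the seed. The table had no entry for miR-19a-5p.
miR-17-5p: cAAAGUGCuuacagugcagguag
miR-20a-5p: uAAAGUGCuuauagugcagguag
miR-18a-5p: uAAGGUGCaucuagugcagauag
miR-19a-3p: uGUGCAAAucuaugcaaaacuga
miR-19b-3p: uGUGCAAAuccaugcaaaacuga
miR-92a-3p: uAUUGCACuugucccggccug

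With positions counted from 1 at the 5′ end, miR-20a-5p differed from miR-17-5p by C1U and C12U, and miR-19b-3p from miR-19a-3p by U11C. Reads of such close copies can be split differently by an aligner, so that single values within a seed family are uncertain. The seed of miR-18a-5p differed from that of miR-17-5p by A4G alone. The opposite arms are shown because 2 of them, from Mir20a and Mir92-1, gave the widest spread between days among the members.
miR-17-3p: aCUGCAGUgagggcacuuguag
miR-18a-3p: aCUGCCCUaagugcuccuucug
miR-20a-3p: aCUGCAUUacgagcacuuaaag
miR-19b-1-5p: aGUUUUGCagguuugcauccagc
miR-92a-1-5p: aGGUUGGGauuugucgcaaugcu

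None of these 5 opposite arms shared its seed with another member. The hairpins Mir20a and Mir92-1 are given whole, with both mature arms in capitals, as the precursors whose arm ratio varied most between days.
Mir20a: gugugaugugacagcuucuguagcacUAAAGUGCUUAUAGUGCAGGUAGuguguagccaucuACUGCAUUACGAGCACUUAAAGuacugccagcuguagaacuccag
Mir92-1: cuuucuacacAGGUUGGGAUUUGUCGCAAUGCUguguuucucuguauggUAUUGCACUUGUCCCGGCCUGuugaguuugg

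The members covered a wide range of levels although they come from a single transcript. By the mean of the 5 Trimfl/fl libraries, miR-92a-3p led with 57332 ± 6954 normalised reads (SD, n = 5), and it ranked 13 among the 592 rows. It was followed by miR-20a-5p with 41143 ± 17110 (SD, n = 5, rank 14) and miR-17-5p with 13835 ± 4146 (SD, n = 5, rank 34). The levels of miR-19b-3p were 4848 ± 966 (SD, n = 5), of miR-18a-5p 1559 ± 386 (SD, n = 5), of miR-92a-1-5p 1141 ± 490.2 (SD, n = 5), of miR-19a-3p 668 ± 42.8 (SD, n = 5) and of miR-17-3p 501 ± 163 (SD, n = 5). The rarest were miR-20a-3p with 123 ± 63.1, miR-18a-3p with 64.8 ± 13.9, miR-19b-1-5p with 33.6 ± 8.71 and miR-19a-5p with 8.18 ± 4.39 (SD, n = 5 each), the last at rank 577. Along this order, miR-17-5p was higher than miR-19b-3p, miR-19b-3p higher than miR-18a-5p, miR-17-3p higher than miR-20a-3p and miR-18a-3p higher than miR-19b-1-5p in 10 of 10 libraries, with ranges over all libraries that did not overlap. The ranges of the other neighbours overlapped. Since the correction fixed the sum of each pair, the 10 values of a row are not independent. The SDs and ranges thus leave out the variation between days that the correction removed. Among them, miR-92a-3p was above miR-20a-5p in 8 of 10 libraries, miR-18a-5p above miR-92a-1-5p in 7 of 10 and miR-20a-3p above miR-18a-3p in 7 of 10.

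To compare the genotypes, the 5 same-day differences of log2(value + 1), Trim-/- minus Trimfl/fl, were fitted over all rows with limma in a model that also held the day. No member was past a fold change of 1.5 and an unadjusted p of 0.05 in either direction, where 0.845% of the table was called higher and 4.56% lower. No row of the table reached an adjusted p under 0.05 (limma, Benjamini-Hochberg; the smallest was 0.607), and 32 rows but no member had an unadjusted p under 0.05. The fitted difference was below 0 in 9 of the 12 members, with a median of -0.24, against 289 of 592 rows and a median of 0.03 over the table. The days themselves differed widely. In 10 of 12 members the 5 differences spanned more than 1 log2 unit from the lowest to the highest day, and the pair of day 4 gave the highest difference in 8 members and the lowest in miR-92a-1-5p and miR-92a-3p. Because the days enter as 5 pairs, exchanging the genotypes within days has 32 patterns, and this exact permutation test cannot give a two-sided p below 0.0625. Nothing in the labels says that the days were separate derivations of the knockout, so the p-values measure the spread between these same-day pairs.

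**Figure D1:**
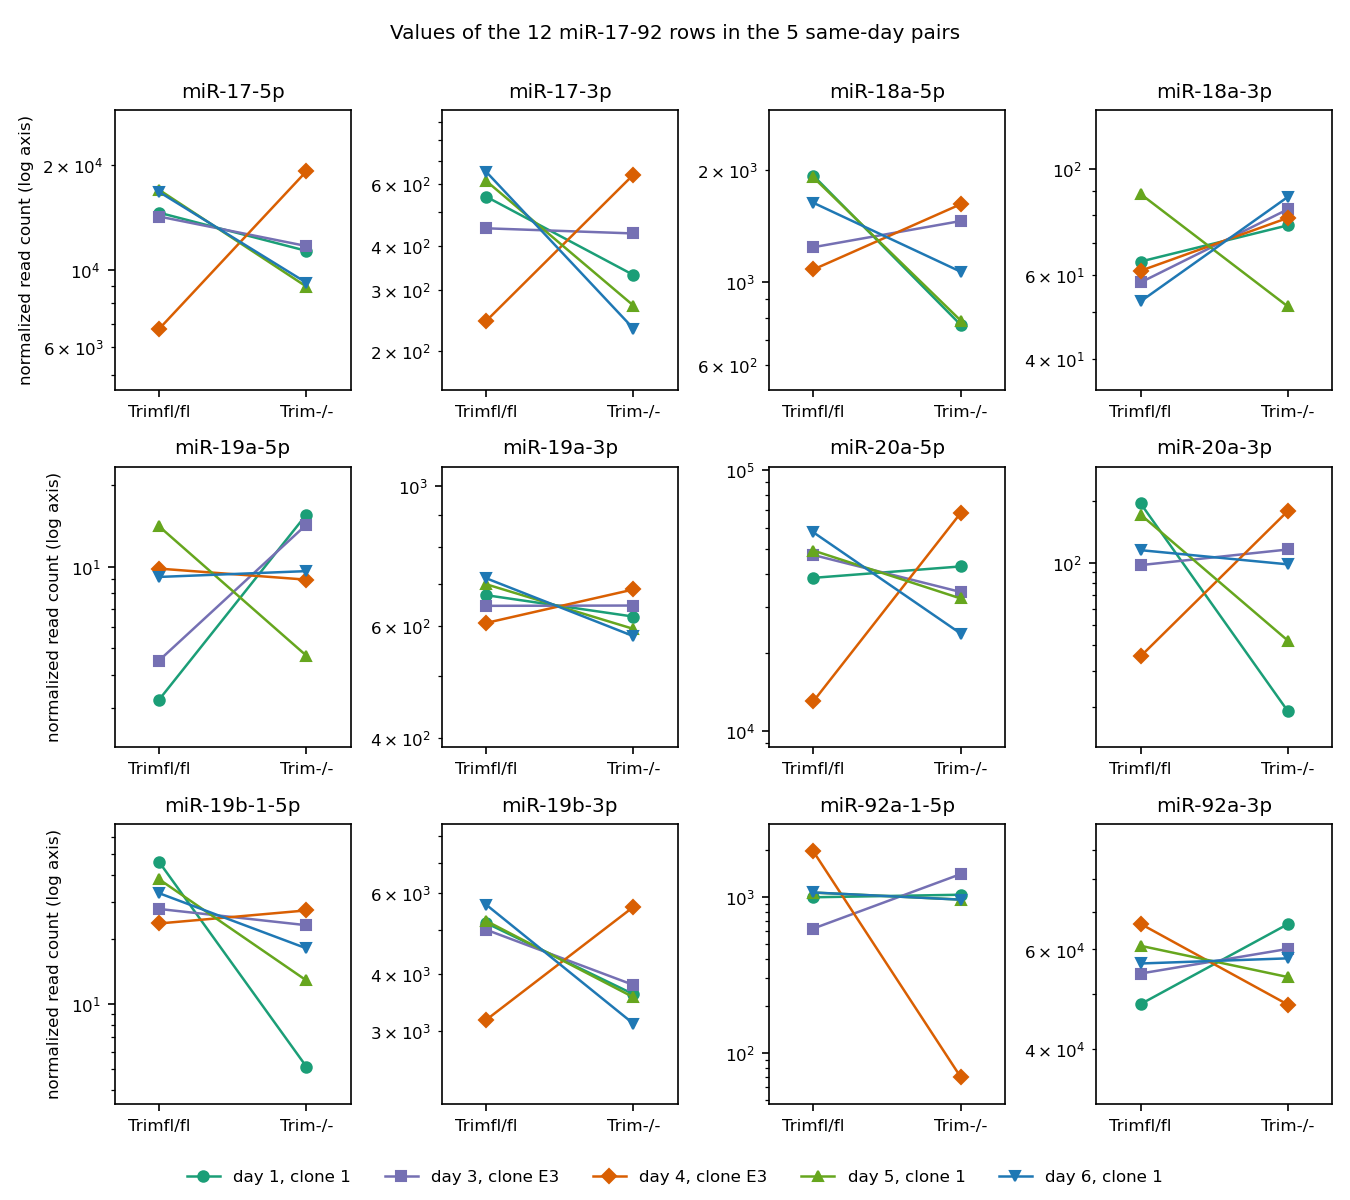
Normalised read counts (log axis) of each of the 12 members in Trimfl/fl and Trim-/- libraries, with a line joining the libraries of 1 day. The line of day 4 (orange) crosses the others in miR-17-5p, where it climbs from 6754 to 19132, and in miR-92a-1-5p, where it drops from 1955 to 69.9.

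The miR-17 seed was carried by miR-17-5p and miR-20a-5p, the arms best known for promoting cell cycle entry. In the order of days 1, 3, 4, 5 and 6, miR-17-5p had 11320, 11685, 19132, 8942 and 9174 normalised reads in Trim-/- cells and 14566, 14200.1, 6754, 16944 and 16711 in Trimfl/fl cells. The Trim-/- value was lower on 4 of 5 days and 2.83 times as high as its partner on day 4, so that the groups overlapped through that day alone. Its fitted log2 difference was -0.19 (SE 0.42, 95% interval -1.21 to 0.84, adjusted p = 0.861 by limma with Benjamini-Hochberg adjustment; exact permutation p = 0.6875). For miR-20a-5p the same days gave 42718, 34115, 68321, 32226 and 23671 in Trim-/- cells and 38635, 47238, 13032, 49127 and 57682 in Trimfl/fl cells. Here the Trim-/- value was lower on days 3, 5 and 6, slightly higher on day 1 and 5.24 times as high on day 4, and the groups overlapped. Its fitted log2 difference was 0.03 (SE 0.56, 95% interval -1.33 to 1.40, adjusted p = 0.991 by limma; exact permutation p = 0.9375), an interval that leaves room for a fold change above 2 in either direction.

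The arm miR-18a-5p, with its own close relative of the miR-17 seed, split by clone. Its values on days 1, 3, 4, 5 and 6 were 768, 1459, 1618, 789 and 1067 in Trim-/- cells and 1931, 1241, 1081, 1911 and 1633 in Trimfl/fl cells. It was lower in Trim-/- cells on all 3 days of clone 1 and higher on both days of clone E3, and the groups overlapped. Over all 5 pairs the log2 difference was -0.48 (SE 0.38, 95% interval -1.42 to 0.46, adjusted p = 0.645 by limma; exact permutation p = 0.3125).

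Of the miR-19 arms, which share 1 seed, miR-19b-3p had 3616, 3787, 5608, 3560.3 and 3117 normalised reads in Trim-/- cells and 5169.8, 4999, 3178, 5225 and 5668 in Trimfl/fl cells. As for miR-17-5p, the Trim-/- value was lower on 4 days and higher, 1.76 times, on day 4. The fitted log2 difference was -0.30 (SE 0.32, 95% interval -1.09 to 0.48, adjusted p = 0.706 by limma; exact permutation p = 0.3125). By contrast, miR-19a-3p had a narrow range, with 622, 647, 686, 594 and 579 in Trim-/- cells and 672, 646, 607, 699 and 715 in Trimfl/fl cells. Its 5 log2 differences lay between -0.30 and 0.18, with a fitted value of -0.09 (SE 0.23, 95% interval -0.66 to 0.47, adjusted p = 0.866 by limma; exact permutation p = 0.375), and its groups overlapped.

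The most abundant member, miR-92a-3p, had 66506, 60143, 47973, 53649 and 57879 normalised reads in Trim-/- cells and 48056, 54419, 66589, 60913 and 56683 in Trimfl/fl cells. The Trim-/- value was higher on days 1, 3 and 6 and lower on days 4 and 5, with day 4 the lowest of the 5 differences (-0.47). The fitted log2 difference was 0.00 (SE 0.25, 95% interval -0.62 to 0.62, adjusted p = 0.995 by limma; exact permutation p = 0.9375), so the groups overlapped and neither direction prevailed. On day 4 it thus went the opposite way to miR-17-5p, miR-20a-5p and miR-19b-3p, while the values of miR-92a-3p and miR-19b-3p include the X chromosome copies.

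The opposite arm of that hairpin, miR-92a-1-5p, held the most extreme value among the members. Its normalised reads were 1032, 1399, 69.9, 960.1 and 959 in Trim-/- cells and 993, 626, 1955, 1065 and 1066 in Trimfl/fl cells. On day 4 the corrected Trimfl/fl value was 28.0 times the Trim-/- value, a fold that depends on the offset left by the correction, on day 3 the Trim-/- value was higher, and on days 1, 5 and 6 the libraries of a pair differed little (0.05, -0.15 and -0.15). Only 10 of the other rows had a lower difference on day 4. The fitted log2 difference of -0.78 (SE 0.87, 95% interval -2.89 to 1.34, adjusted p = 0.712 by limma; exact permutation p = 0.625) rested on that pair, and without it the value was 0.23.

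**Figure D2:**
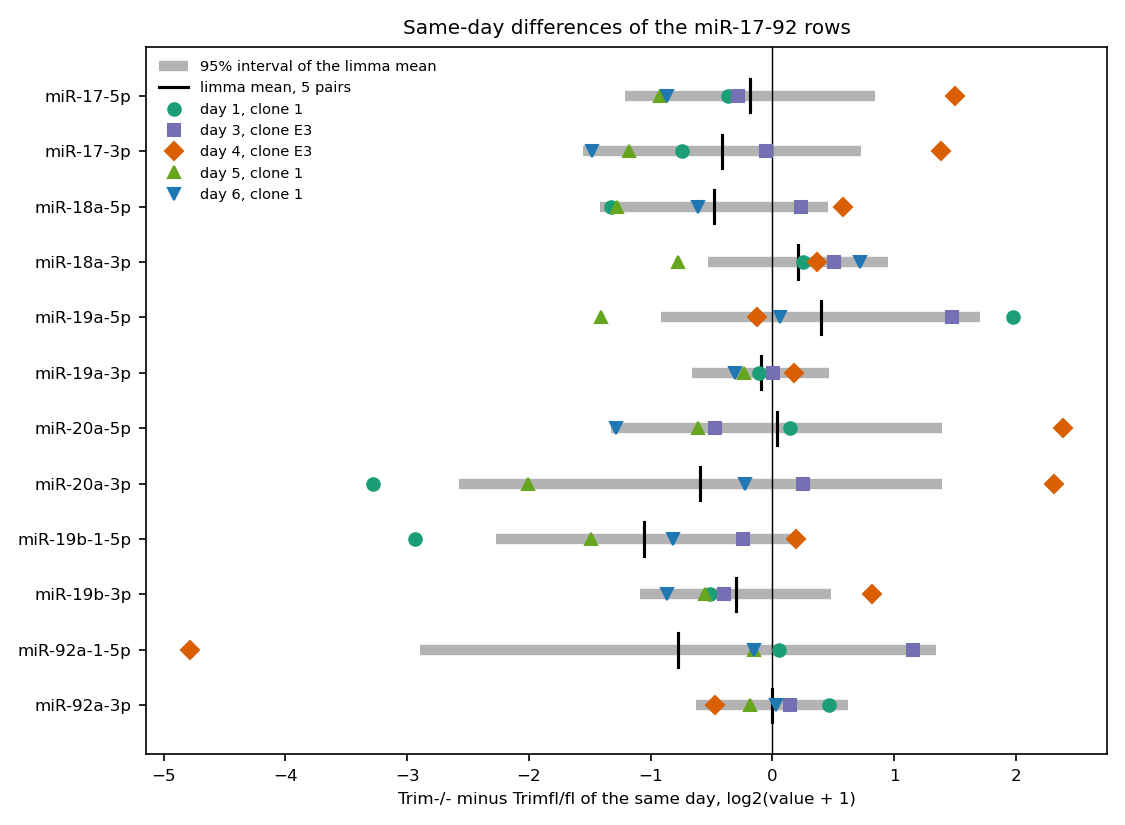
Same-day differences of log2(value + 1), Trim-/- minus Trimfl/fl, of each member, with the limma mean of the 5 pairs (black line) and its 95% interval (grey bar). The day 4 diamonds lie at 1.38 for miR-17-3p, 2.39 for miR-20a-5p and -4.79 for miR-92a-1-5p, and every grey bar crosses 0.

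The other opposite arms followed. For miR-17-3p the values were 330.2, 434, 638, 270.1 and 232 in Trim-/- cells and 552, 449, 244, 612 and 650.1 in Trimfl/fl cells, on the same side as miR-17-5p on every day, and the log2 difference was -0.41 (SE 0.47, adjusted p = 0.716 by limma). For miR-20a-3p they were 19.1, 116, 179, 42.0 and 98.5 in Trim-/- cells and 195, 97.6, 35.2, 172 and 115 in Trimfl/fl cells. It was lower in Trim-/- cells on the days of clone 1 and higher on those of clone E3, with a log2 difference of -0.59 (SE 0.81, adjusted p = 0.744 by limma). Without day 1 the difference of miR-20a-3p changed direction, to 0.082. The arm miR-19b-1-5p, whose hairpin is specific to this cluster and which does not come from the X chromosome, had 5.13, 23.3, 27.3, 12.9 and 18.2 in Trim-/- cells and 45.9, 27.7, 23.7, 38.1 and 32.8 in Trimfl/fl cells. Its fitted log2 difference was -1.06 (SE 0.50, 95% interval -2.27 to 0.15, unadjusted p = 0.0765 and adjusted p = 0.607 by limma; exact permutation p = 0.125), and only day 4 was higher in Trim-/- cells. Without day 1, the pair with the lowest Trim-/- value, the difference was -0.59. The remaining arms, miR-18a-3p (51.5 to 88.6 over the 10 libraries) and miR-19a-5p (3.23 to 15.6), had fitted log2 differences of 0.21 (SE 0.30) and 0.40 (SE 0.54), with adjusted p-values of 0.758 and 0.744 by limma. Without day 1 the difference of miR-19a-5p was 0.0025, and without day 6 or day 5 that of miR-18a-3p was 0.086 or 0.46.

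Since both arms of a hairpin start from the same precursor, the ratio of the corrected value of the abundant arm to that of the other arm was followed in each library, without a test. As each row was shifted separately by the correction, these are ratios of corrected values and not of reads. For Mir17 it stayed between 25.7 and 39.5 (median 28.8) and for Mir18 between 10.1 and 31.0 (median 19.1). It ranged from 39.9 to 208 for Mir19a, from 198 to 2236 for Mir20a, from 113 to 705 for Mir19b-1 and from 34.1 to 687 for Mir92-1. The extreme of Mir20a was the Trim-/- library of day 1, where miR-20a-3p was at 19.1, and the extreme of Mir92-1 was the Trim-/- library of day 4. For Mir92-1 this gave a same-day difference in the log2 ratio of 4.33 on day 4, against -1.02 to 0.41 on the other days. The 3p values of Mir19b-1 and Mir92-1 include reads from the X chromosome copies. The Mir18 ratio was lower in Trim-/- cells on 4 of 5 days, with a mean difference of -0.70 ± 0.75 (SD, n = 5), and the Mir17 ratio was higher on 4 of 5 days, with 0.23 ± 0.32 (SD, n = 5).

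Day 4 was then set against the other days. Of the 12 members, 4 (miR-17-5p, miR-17-3p, miR-19b-1-5p and miR-19b-3p) were lower in Trim-/- cells on days 1, 3, 5 and 6 and higher on day 4, a pattern found in 11.1% of all rows. The reverse, higher on the other days and lower on day 4, held for no member and for 10.8% of all rows, whereas any other single day stood alone in 1.52 to 3.38% of rows in either direction. Among the members, miR-18a-3p alone had such a day, lower on day 5 and higher on the other 4, as in 3.38% of all rows. On day 4 itself 9 of 12 members were higher in Trim-/- cells, with a median log2 difference of 0.47, against 298 of 592 rows and a median of 0.01 over the table. On day 5 all 12 were lower, with a median of -0.85, against 297 of 592 rows and a median of -0.0056. The medians of days 1, 3 and 6 were -0.24, 0.07 and -0.46. On day 4, 16 rows of the table had a higher difference than miR-20a-5p, 17 than miR-20a-3p, 47 than miR-17-5p and 53 than miR-17-3p. The fibroblast or feeder list also parted on that day, with 0.364% of the Trim-/- library and 0.815% of its partner. On days 1, 3, 5 and 6 it was the higher in Trim-/- cells, with 0.619, 0.644, 0.640 and 0.714% against 0.589, 0.564, 0.489 and 0.476%, and its part in the members' values was not tested. Dividing by library totals gave members' medians of -0.44, -0.053, 0.68, -1.86 and -0.67 on days 1, 3, 4, 5 and 6, so that day 3 changed sign, where the medians of all rows moved to -0.22, -0.14, 0.21, -1.002 and -0.19.

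**Figure D3:**
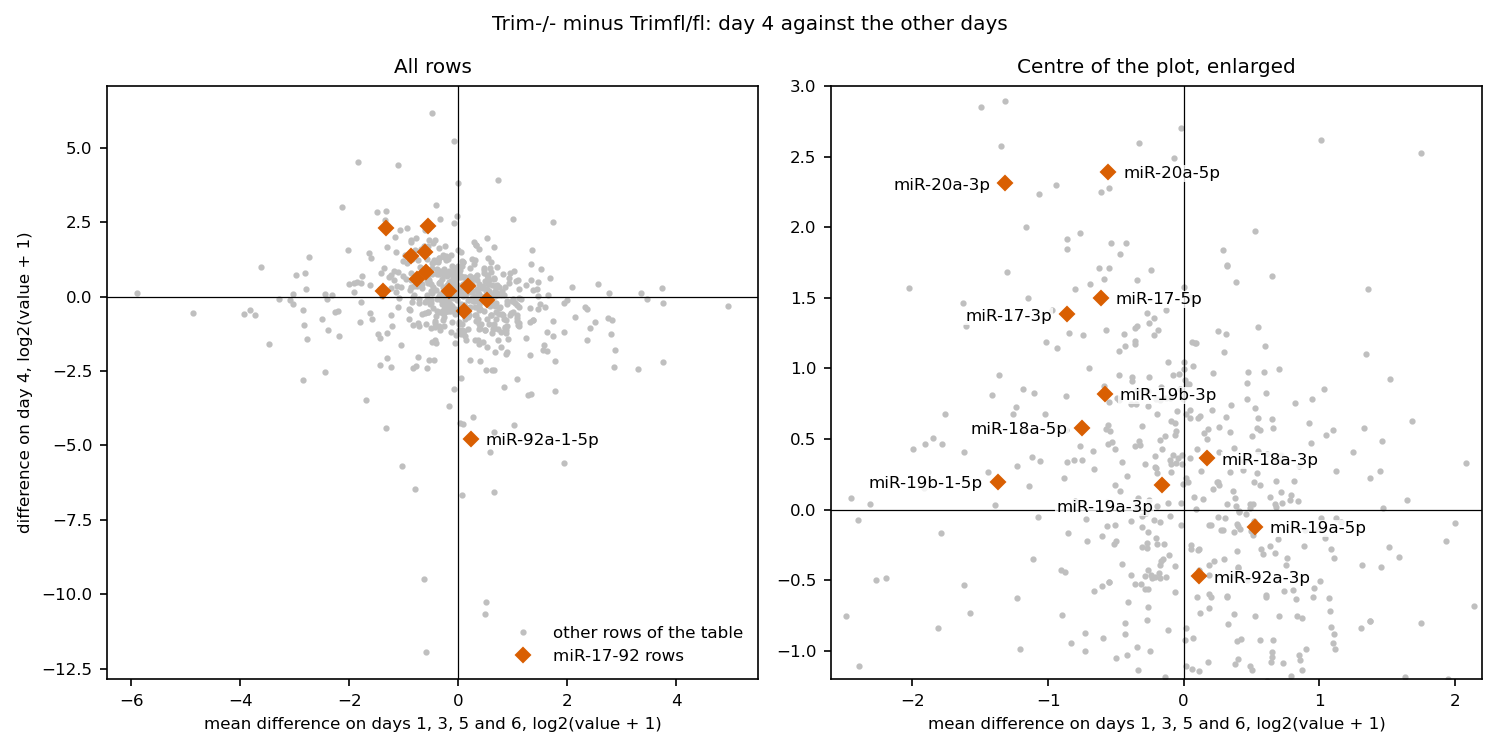
Log2 difference of each row on day 4 (vertical axis) against its mean difference on days 1, 3, 5 and 6 (horizontal axis), with members in orange and other rows in grey, over all values (left) and enlarged (right). The miR-20a arms lie near 2.3 to 2.4 on the vertical axis with means of -0.55 and -1.32 on the horizontal axis, and miR-92a-1-5p lies at -4.79.

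Without the pair of day 4, 2 members were past the thresholds as lower and none as higher, where 7.43% of the table was called lower and 3.89% higher. These were miR-17-3p, with a log2 difference of -0.86 (SE 0.33, unadjusted p = 0.0476 by limma), and miR-19b-1-5p, with -1.37 (SE 0.51, unadjusted p = 0.0439 by limma), both at an adjusted p of 0.385 (limma). Just outside were miR-19b-3p with -0.58 (unadjusted p = 0.0532 by limma) and miR-17-5p with -0.61 (unadjusted p = 0.0625 by limma). Leaving out day 6 instead moved miR-17-3p to -0.15, miR-19b-3p to -0.16 and miR-17-5p to -0.016, and leaving out day 5 moved miR-17-5p to -0.0020. With all 5 pairs, no member had Trim-/- values all below the Trimfl/fl values, which held for 6.25% of the table. Without day 4 it held for 4 of 12 members, the same 4 as above, and for 17.4% of the table. As the pairs mirror each other, such a separation says no more than that each day had the same sign. The median of the members moved from -0.24 to -0.57 without day 4, while that of all rows went from 0.03 to 0.00.

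The clones were compared next, because day 4 belongs to clone E3. In the 3 pairs of clone 1, 3 members were called lower, namely miR-17-3p (-1.13, unadjusted p = 0.0287 by limma), miR-18a-5p (-1.07, unadjusted p = 0.0354 by limma) and miR-19b-1-5p (-1.75, unadjusted p = 0.0353 by limma), all with an adjusted p of 0.447 (limma), and none higher, where 7.6% of the table was lower and 2.36% higher. In the 2 pairs of clone E3 no member was called, where 4.73% of the table was lower and 1.35% higher. The median of the members was -0.61 in clone 1 and 0.42 in clone E3, and that of all rows 0.01 and 0.02. A direct test of the difference between clones, E3 minus clone 1, gave 1.7998 for miR-17-3p (SE 0.68, unadjusted p = 0.0425), 1.48 for miR-18a-5p (SE 0.56, unadjusted p = 0.0430) and 3.12 for miR-20a-3p (SE 1.15, unadjusted p = 0.0404), each with an adjusted p of 0.627 by limma. Without day 4, where clone E3 is left with 1 pair that is assumed to vary like those of clone 1, the values were 1.08 for miR-17-3p (unadjusted p = 0.177 by limma), 1.31 for miR-18a-5p (unadjusted p = 0.126 by limma) and 2.09 for miR-20a-3p (unadjusted p = 0.221 by limma), and without day 1 or day 5 all 3 also had an unadjusted p above 0.05. Without day 3, where day 4 alone stands for clone E3, the clone difference was 2.52 for miR-17-3p, 1.65 for miR-18a-5p and 4.15 for miR-20a-3p. In miR-17-5p, miR-20a-5p and miR-92a-1-5p it was 2.22, 2.97 and -4.70 without day 3, against 1.33, 1.54 and -1.73 with all pairs (unadjusted p = 0.126, 0.191 and 0.365 by limma). Without day 4 it was 0.44, 0.11 and 1.24 in the same members. With all pairs, miR-17-3p, miR-18a-5p and miR-20a-3p, 3 of 12 members, had an unadjusted p under 0.05 by limma, against 5.57% of the table. The members miR-18a-5p, miR-20a-3p and miR-19a-3p were lower on every day of clone 1 and higher on both days of clone E3, which held for 4.05% of the table, although miR-19a-3p was higher by only 0.0016 on day 3. The clone E3 values of miR-17-3p and miR-20a-3p came mostly from day 4 (1.38 and 2.31), since day 3 gave -0.05 and 0.25. Clone E3 had days 3 and 4 alone, so that apart from day 4 its direction rests on a single pair.

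The members together held 1.82 to 3.85% of the summed values of a Trim-/- library (2.71 ± 0.77%, SD, n = 5) and 2.16 to 4.99% of a Trimfl/fl library (3.41 ± 1.05%, SD, n = 5). The ranges overlapped, and the share was lower in Trim-/- cells on 4 of 5 days and higher on day 4, with 3.85% against 2.16%. On day 1 the shares were nearly equal, with 2.93% against 2.95%, and the summed values were higher in Trim-/- cells (127027 against 110883). The difference on day 5, 1.82% against 4.99%, went with unequal totals of 5551715 and 2742673. As each row was shifted separately, shares within the cluster are of corrected values and not of reads. Which library of a pair moved cannot be told apart. These shares differed most between the libraries of day 4. There miR-92a-3p made up 33.2% of the members' summed values in Trim-/- cells and 71.2% in Trimfl/fl cells, against 52.4 to 59.7% and 40.2 to 44.5% on the other days. The share of miR-20a-5p was 47.3% and 13.9% on day 4, and 24.4 to 33.6% and 34.8 to 40.9% on the others.

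**Figure D4:**
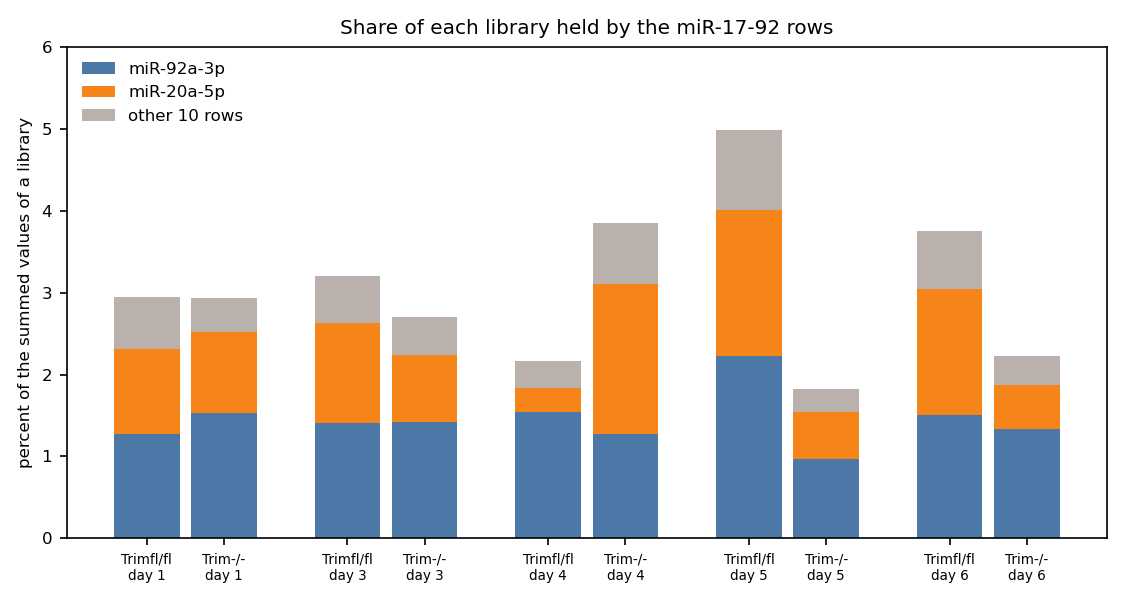
Percent of the summed corrected values of each library, not of its reads, held by miR-92a-3p, miR-20a-5p and the other 10 members (stacked bars), by day and genotype. The miR-20a-5p segment is thin in the Trimfl/fl library of day 4, where it made up 13.9% of the members' sum, and the tallest bar is the Trimfl/fl library of day 5 at 4.99%.

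Rows outside the cluster that carry the same seeds were examined on the same days, over the 463 of 592 rows with a RefSeq mature sequence. The miR-17 seed was found in 6 rows, the members miR-17-5p and miR-20a-5p and the relatives miR-106a-5p, miR-20b-5p, miR-93-5p and miR-106b-5p, which are made from clusters on other chromosomes. All 6 were higher in Trim-/- cells on day 4, with a median of 1.17, and 5 of them were lower on all 4 other days, with medians of -0.38, -0.38, -0.97 and -0.93. Of all rows, 298 of 592 were higher on day 4, and 11.1% were higher on day 4 and lower on the other 4 days. The relatives were named after their values were seen. Some of these are close copies of members, as miR-106a-5p differs from miR-17-5p by U10A and miR-20b-5p from miR-20a-5p by U1C and U10C, whereas miR-93-5p differs from miR-17-5p at 4 positions (U10G, A11U, C12U and A13C). The miR-92a seed was found in 6 rows, and only miR-25-3p (0.62) and miR-32-5p (0.35) were higher on day 4. In miR-18b-5p, which differs from miR-18a-5p by A18U and A20U, every day including day 4 (-0.54) was lower. The related clusters miR-106a-363 and miR-106b-25 gave 16 rows, of which 1 was called lower (miR-18b-5p, -0.59, adjusted p = 0.607 by limma) and none higher, where 4.56% of the table was lower and 0.845% higher. Without day 1 or day 6 none of the 16 was called lower, where 1.86% and 2.53% of the table were. Without day 4 the count was 4 of 16, where 7.43% of the table was lower. The median of these 16 rows was -0.38 over the 5 pairs, with 12 of 16 below 0, and 0.51 on day 4, with 11 of 16 above 0.

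**Figure D5:**
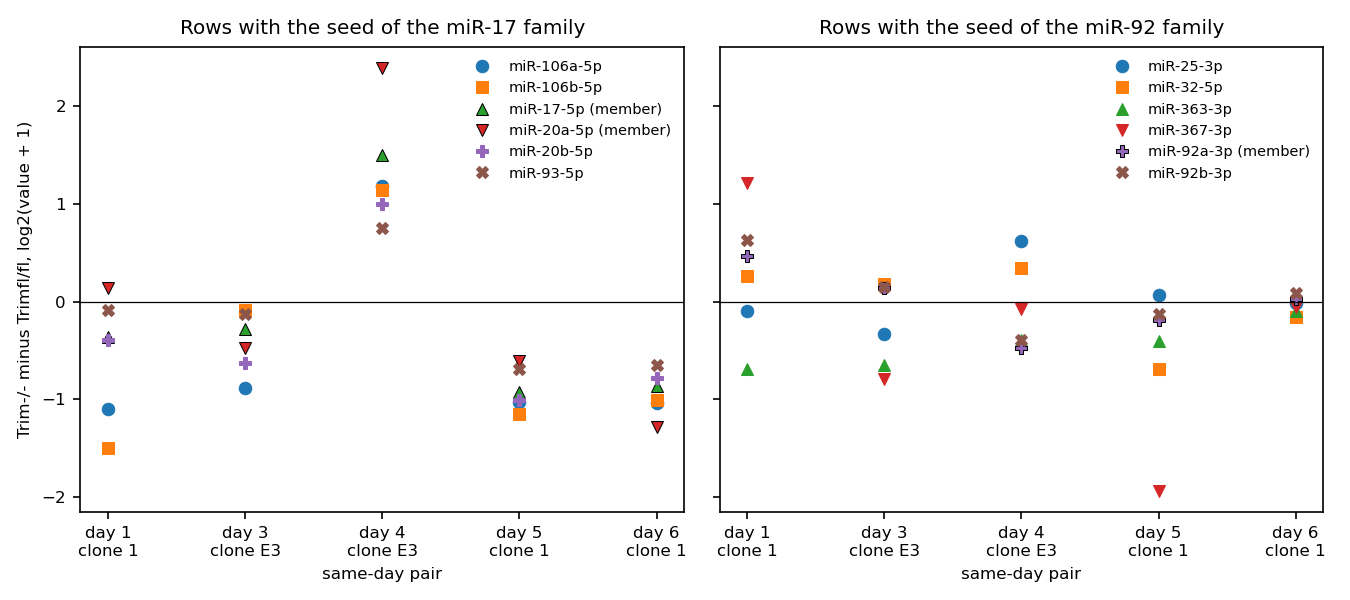
Same-day log2 differences, Trim-/- minus Trimfl/fl, of the 6 rows with the miR-17 seed (left) and the 6 with the miR-92a seed (right), with members outlined in black. On day 4 the rows with the miR-17 seed lie between 0.75 and 2.39, and those with the miR-92a seed between -0.47 and 0.62.

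The rows whose pattern was most like the cluster were found by the root mean square difference, over the 5 pairs, from the median profile of the 6 abundant arms (-0.24, -0.14, 0.70, -0.58 and -0.74 on days 1, 3, 4, 5 and 6). Among 474 other rows without a floored value, miR-93-5p was closest at 0.10 log2 units, followed by miR-107-3p at 0.21, miR-708-5p at 0.22, miR-466f-5p at 0.31 and miR-700-3p at 0.31. By the same measure, the abundant arms that define the profile lay at 0.19 (miR-19b-3p), 0.35 (miR-19a-3p), 0.40 (miR-17-5p), 0.61 (miR-18a-5p), 0.74 (miR-92a-3p) and 0.83 (miR-20a-5p). Between single members, a different measure, the closest were miR-17-5p and miR-19b-3p (0.36) and miR-17-5p and miR-17-3p (0.36), and the median over the 15 pairs of abundant arms was 0.76.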

How the data were processed

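Small RNA libraries of 5 Trim-/- and 6 Trimfl/fl mES cell samples were read from 1 table of 592 miRNA rows. Per the methods and labels, the authors trimmed reads with CASAVA 1.8 and FLICKR, aligned them to miRBase entries of mm10 with Bowtie2 2.2.1 and counted them in Partek 6.6. They then normalised with DESeq2, corrected for batch, set low values to 1 and kept rows whose larger group mean reached 10. The deposited values are thus a signal on a normalised count scale, with unknown depth, and a count model could not be used. The correction removed the level of each day and clone.

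Values were transformed to log2(value + 1) and fitted over all 592 rows with limma 3.58.1 (R 4.3.3; lmFit and eBayes) on genotype with the day as a block, and p-values were adjusted by Benjamini-Hochberg. Thresholds were a fold change of 1.5 and an unadjusted p of 0.05. The pairing comes from the labels, where a day joins 1 library of each genotype of a clone; same-day deviations mirror each other by construction. The clone difference was an interaction term. Scripts were tested on simulated data. Members, gene lists and the attention to day 4 were chosen with earlier results of these data known. Named rows were all members and the 5 other rows closest to the median profile of the 6 abundant arms; rows sharing a seed with a member were named in addition, chosen after their values were seen. Alternatives were fits without the block or with clone, 11 libraries, each pair left out, each clone alone, other scalings and pseudocounts (0.1 and 10), untransformed values, limma with trend, a mean of at least 100 and values before the floor.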

Additional observations from a re-analysis of the deposited data

Results flagged for a closer look

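Within each group of 5 libraries, a library was singled out where its gap to the nearest other on the log2(value + 1) scale, divided by the range of the group, exceeded Dixon's 95% limit for 5 values (0.71). The limit lets about 1 in 20 single groups pass by chance, but the 24 groups of the members come from same-day values with fixed sums and are not independent. It was passed in 5 of the 24, 4 of them on day 4, and in 16.0% of the groups of all rows, 5.74% on day 4. On day 4 the Trimfl/fl library was lowest for miR-17-5p (6754), miR-20a-5p (13032) and miR-19b-3p (3178), and the Trim-/- library was lowest for miR-92a-1-5p (69.9). The fifth was miR-18a-3p in the Trim-/- library of day 5 (51.5). On untransformed values, where the pairs mirror each other, the limit was passed by miR-17-5p and miR-19b-3p alone, in both genotypes and on day 4. Each value therefore belongs to the pair as much as to the library.

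In 3 members, and in 4.05% of the table, Trim-/- values were higher in every pair of clone E3 and lower in every pair of clone 1, though miR-19a-3p was higher by only 0.0016 log2 units on day 3. The difference between clones was 1.48 for miR-18a-5p (unadjusted p = 0.0430 by limma), 3.12 for miR-20a-3p (unadjusted p = 0.0404 by limma) and 0.31 for miR-19a-3p (unadjusted p = 0.572 by limma), with adjusted p-values of 0.627 or above for all 3.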

How the results depend on the processing

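Of 213 refits of single members, 187 kept the direction and the side of the thresholds. Without the replicate block (the day), and likewise with clone in its place or with 11 libraries, 1 member was called lower, miR-19b-1-5p (-1.06, -1.06 and -1.06, at unadjusted p = 0.0248, 0.0308 and 0.0139 by limma), clone 1 alone gave 3, and leaving out 1 pair gave 0 to 2, with 2 only without day 4. No setting called a member higher. Over the table the higher and lower counts, 5 and 27 with all pairs, were 42 and 59 without the block, 36 and 57 with clone, 45 and 71 with 11 libraries, 23 and 44 without day 4, 5 and 11 without day 1, 8 and 22 without day 5, 4 and 15 without day 6, 14 and 45 in clone 1, 8 and 28 in clone E3, 2 and 48 after division by totals, 2 and 43 by totals outside miR-290 to miR-295, 8 and 31 at a pseudocount of 10, 9 and 19 untransformed, and 5 and 10 of 329 rows with a mean of at least 100, a filter that drops 3 members. The fits without the block or with 11 libraries treat mirrored or derived values as independent, which adds residual degrees of freedom by construction, so their calls are no added evidence. Other causes were not tested.

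The median of the members ran from -0.57 to -0.09 as each pair was left out and was 0.42 in clone E3 alone. In clone E3 alone miR-17-5p (0.61), miR-17-3p (0.67), miR-18a-5p (0.41), miR-19a-3p (0.089), miR-20a-3p (1.28) and miR-19b-3p (0.21) changed direction, as did miR-20a-5p (-0.58) and miR-92a-3p (0.11) in clone 1 alone. Division by totals moved the median of all rows from 0.03 to -0.24 and that of the members from -0.24 to -0.51, with 11 of 12 below 0, and turned miR-18a-3p (-0.054), miR-20a-5p (-0.24) and the clone difference of miR-92a-3p (0.25), and it brought that of miR-19b-1-5p to an unadjusted p of 0.0431 by limma, as leaving out day 6 did (0.0439). The totals outside miR-290 to miR-295, an alternative chosen after seeing the data, gave -0.037 and -0.22 for miR-18a-3p and miR-20a-5p, and untransformed values -0.033 for miR-20a-5p. Leaving out pairs gave -0.61 to -0.0020 for miR-17-5p, -0.86 to -0.15 for miR-17-3p, -0.58 to -0.16 for miR-19b-3p, 0.0025 to 0.85 for miR-19a-5p, 0.086 to 0.46 for miR-18a-3p, -0.75 to -0.27 for miR-18a-5p, -1.37 to -0.59 for miR-19b-1-5p, which was -0.72 at a pseudocount of 10, -1.32 to 0.082 for miR-20a-3p, -0.55 to 0.36 for miR-20a-5p, -1.26 to 0.23 for miR-92a-1-5p and -0.12 to 0.12 for miR-92a-3p. For the difference between clones it gave 1.08 to 2.52 for miR-17-3p, 1.31 to 1.71 for miR-18a-5p, 2.09 to 4.15 for miR-20a-3p, -0.34 to 1.35 for miR-19a-5p, -4.70 to 1.24 for miR-92a-1-5p, -0.58 to 0.039 for miR-92a-3p and -0.050 to 0.69 for miR-18a-3p. The clone difference ran from 0.44 to 2.22 for miR-17-5p and from 0.11 to 2.97 for miR-20a-5p. The depth of each library is unknown, so counting error could not be set beside the rare arms.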
